A study of Mus musculus with 10 samples.

Results

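The genes described here make and load the molecules that show peptides to T cells, together with the immunoproteasome that cuts those peptides. They were chosen by name: every gene with a symbol starting with H2-, the mouse major histocompatibility complex, and 14 named genes of peptide supply, class II regulation and lipid presentation, among which the protease gene Ctss was not counted. Of these, 31 were measured among the 16475 genes of the table: 18 with an H2- symbol and 13 of the 14 named ones. Nlrc5, the class I transactivator, was not analysed here. Expression was measured in kidney cortex from which glomeruli had been removed, with 1 Affymetrix Mouse Genome 430 2.0 array per mouse. The db/db group held 5 diabetic mice on the BKS background, which carry the db mutation of the leptin receptor gene on both copies, aged 24 weeks. The db/m group held 5 littermates of the same age and background that were not diabetic and carry the db mutation on a single copy, with no other treatment given in the labels. All values are log2 expression levels, each change is the db/db mean less the db/m mean of these log2 levels, given ± its standard error, and every adjusted p is from limma with Benjamini-Hochberg adjustment over all 16475 genes.

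Class I molecules pair a heavy chain with beta-2-microglobulin and show peptides cut in the cytosol by the proteasome, carried into the endoplasmic reticulum by the TAP transporter and trimmed there. Class II molecules pair an alpha and a beta chain, travel with the invariant chain Cd74, and exchange a piece of it for a peptide with the help of H2-DM. Nearly all cells make class I, whereas class II is typical of dendritic cells, macrophages and B cells, and interferon gamma raises both in many cells, renal tubule cells among them.

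The db/db mice were not alike, and mouse 1 stood apart over the whole array. Over all genes it correlated with the other 9 arrays at a Pearson r of 0.938 to 0.962, and its level was below that of every db/m mouse for 49.4% of all genes. The median change over the 31 genes is therefore given with all mice, without db/db 1, and without db/db 1 and 2. The plot of the change of each of these genes shows the same fits. In the text, the changes of many single genes are given with all mice only, and some lack the fit without db/db 1 and 2. Proximal tubule markers were bright in both groups, with a mean over 10 genes of 12.78 to 13.27 in db/db mice and 13.09 to 13.28 in db/m mice. The podocyte genes Synpo and Wt1 averaged 11.21 and 9.32 in db/db, against 10.74 and 8.87 in db/m, in a tissue labelled as deprived of glomeruli.

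Across both classes the presentation genes were high in some db/db mice and at or below the db/m level in others. None of the 31 genes passed an adjusted p of 0.05 in the limma fit with all mice, where 6.51% of all genes passed in either direction, 2.96% higher and 3.54% lower in db/db. At an unadjusted p under 0.05 there were 5 of the 31 (Erap1, Psmb10, H2-Ab1, H2-DMb1 and H2-DMa), against 21.5% of all genes. The change was positive in 27 genes and negative in 4, with a median of 0.49, against -0.03 over all genes. The median was 0.27 without db/db 1 and 0.15 without db/db 1 and 2, against -0.01 and 0.00 over all genes. Of the 31 genes 0 kept the groups fully apart with db/db higher, against 4.35% of all genes, and 0 with db/db lower, against 5.85%.

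**Figure D1:**
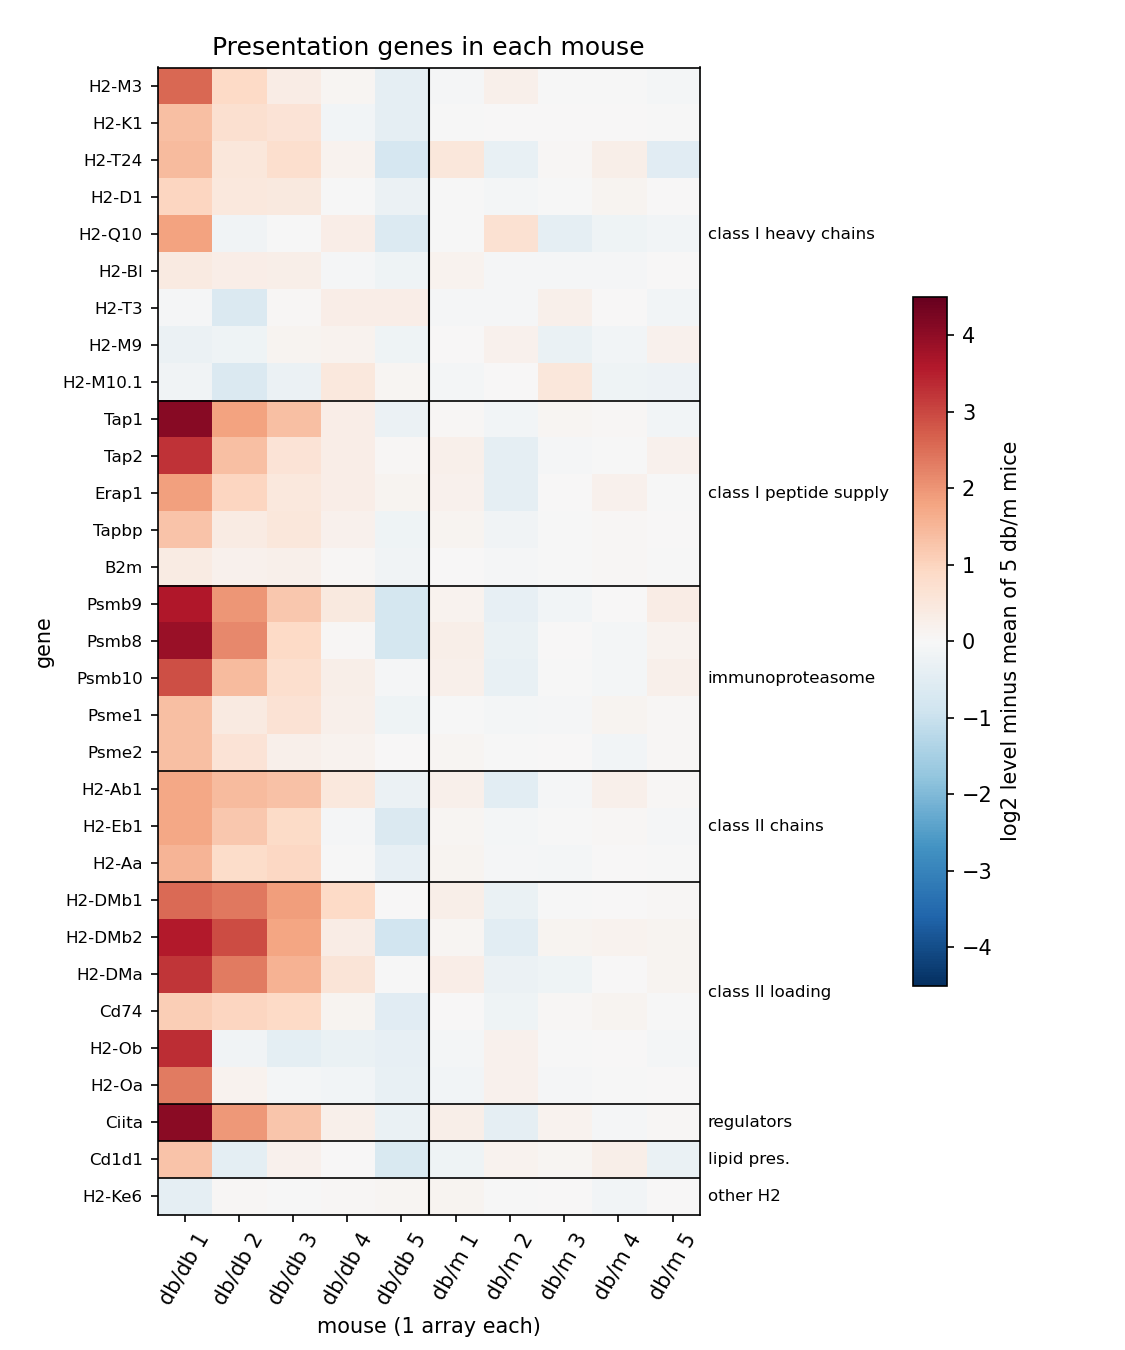
Log2 level of each of the 31 presentation genes (rows, grouped by role) minus its mean over the 5 db/m mice, in each mouse (columns, db/db left of the line and db/m right of it). Red is above the db/m mean and blue below it. The db/db columns run from deep red in db/db 1, where the median gene was 1.73 above the db/m mean, to pale blue in db/db 5, where it was at -0.26.

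The 5 db/db mice fell in the same order for most of these genes. The median gene was above its db/m mean by 1.73 in db/db 1, by 0.71 in db/db 2, by 0.62 in db/db 3 and by 0.17 in db/db 4, and was at -0.26 in db/db 5. Over all genes these medians were -0.17, -0.02, -0.01, 0.00 and 0.01. The order from mouse 1 as the highest to mouse 5 as the lowest held in 19 of the 31 genes, against 2.56% of all genes. These genes share the same mice, so they do not count as separate observations of that order.

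In db/db 1, 27 of 31 genes were above every db/m mouse, against 25.1% of all genes, and the same 27 had their highest level of all 10 arrays in this mouse (19.9% of all genes). A level over 2-fold above the mean of db/m was found for 24 genes in db/db 1, against 9.83% of all genes. In db/db 2 there were 23 genes above every db/m mouse (23.6% of all genes) and 11 more than 2-fold above the mean (2.81%). In db/db 3, 23 genes were again above every db/m mouse (24.0% of all genes) and 7 more than 2-fold above the mean (1.72%). In db/db 4, 13 genes were above every db/m mouse (22.2% of all genes) and 0 more than 2-fold above the mean (0.989%). In db/db 5 a single gene was above every db/m mouse (25.6% of all genes), while 19 were below every db/m mouse (24.2%) and 18 had their lowest level of all 10 arrays there (7.56%).

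The spread among db/db mice was wide as a result, and the db/m mice lay close together. The SD over db/db mice was larger than over db/m mice in 30 of 31 genes, against 73.6% of all genes, and the median ratio of the SDs was 5.51, against 1.53 over all genes. Without db/db 1 the ratio was 3.26, against 1.01 over all genes, and 28 genes had the larger SD in db/db (50.4% of all genes). Without db/db 1 and 2 it was 2.91, against 0.902, with 27 genes (44.2% of all genes). The exception with all mice was H2-M9, a dim class I-type gene.

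The classical class I heavy chains were bright and differed little on average. H2-K1 stood at 13.78, 13.12, 13.04, 12.28 and 11.99 in db/db mice 1 to 5, against 12.38, 12.41, 12.43, 12.43 and 12.38 in db/m mice 1 to 5. Db/db 1, 2 and 3 lay above the whole db/m range and db/db 4 and 5 below it, so that the change of 0.43 ± 0.29 did not pass (adjusted p = 0.429). It was 0.20 ± 0.21 without db/db 1, and without db/db 1 and 2 it was 0.03 ± 0.20. H2-D1 stood at 14.11, 13.63, 13.61, 13.13 and 12.90 in db/db mice, against 13.13, 13.07, 13.15, 13.30 and 13.17 in db/m mice. The same 3 db/db mice were above all db/m mice, and the change was 0.31 ± 0.20 (adjusted p = 0.397), or 0.15 without db/db 1.

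Among the non-classical class I genes, the brighter H2-M3 and H2-T24 varied in the same mice. H2-M3, whose product presents formylated bacterial peptides, stood at 11.53, 9.86, 9.27, 9.04 and 8.56 in db/db, against 8.86 to 9.17 in db/m. It was 5.99-fold above the db/m mean in db/db 1 and 1.87-fold above it in db/db 2, and its change was 0.70 ± 0.46 (adjusted p = 0.424). H2-T24 ran from 7.02 to 9.20 in db/db, with a median of 8.30, against 7.27 to 8.29 in db/m. The remaining 5 class I-type genes, H2-Q10, H2-Bl, H2-T3, H2-M9 and H2-M10.1, averaged under 7 in both groups, with changes of -0.11 to 0.26. At these dim levels H2-Q10 was 3.48-fold above the db/m mean in db/db 1, and H2-Bl fell in order from 6.34 in db/db 1 to 5.74 in db/db 5. H2-T3 ran otherwise, with its lowest level of the 10 arrays in db/db 2 and its highest in db/db 5. Over the 9 class I heavy chain genes 6 changes were positive, the median was 0.26, or 0.08 without db/db 1 and 0.04 without db/db 1 and 2, and 0 were called. At an unadjusted p under 0.05 there were also 0, against 21.5% of all genes. Class I heavy chain genes resemble each other in sequence, and the BKS strain carries another H2 haplotype than C57BL/6J, on which the reference is built. How well the probes match these alleles, and whether they read more than 1 class I gene, was not tested.

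**Figure D2:**
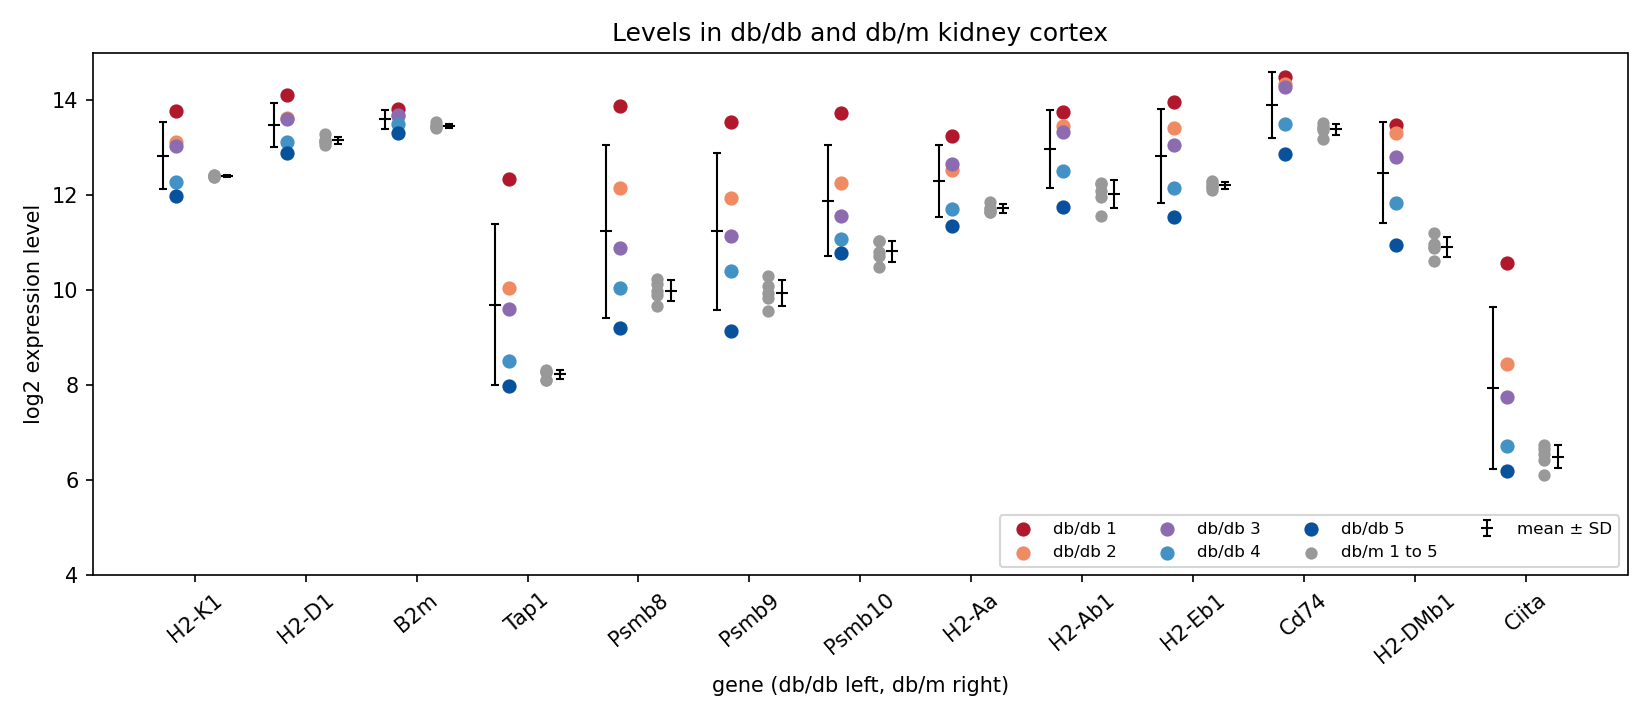
Log2 expression level of 13 genes in each db/db mouse (coloured points, left of each pair) and each db/m mouse (grey points, right), with the mean and SD of each group as black bars. Db/m mice lie within 0.73 log2 units of each other in each gene, while db/db mice span 0.52 for B2m and up to 4.66 for Psmb8.

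B2m, the light chain common to class I molecules, had the smallest change of the peptide supply genes. It stood at 13.83, 13.68, 13.70, 13.51 and 13.31 in db/db, against 13.47, 13.42, 13.46, 13.54 and 13.44 in db/m, a change of 0.14 ± 0.10 (adjusted p = 0.448). The highest value on these arrays was 14.5, and whether differences are compressed near the top of the scale was not tested. The peptide transporter subunit Tap1 had the largest, at 12.34, 10.04, 9.60, 8.52 and 7.98 in db/db, against 8.29, 8.11, 8.33, 8.29 and 8.12 in db/m. It was 17.3-fold above the db/m mean in db/db 1, the largest such difference of the 31 genes, 3.51-fold in db/db 2 and 2.60-fold in db/db 3, and was below every db/m mouse in db/db 5. The change was 1.47 ± 0.67 (adjusted p = 0.242), or 0.81 ± 0.36 without db/db 1 (adjusted p = 0.187). Its partner Tap2 was 9.62-fold above the db/m mean in db/db 1 and 2.58-fold in db/db 2, with a change of 1.12 ± 0.52 (adjusted p = 0.249).

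The other genes of peptide loading differed in size of change. Erap1, the aminopeptidase that trims peptides in the endoplasmic reticulum, had a change of 0.74 ± 0.30, which did not pass (adjusted p = 0.177). It stood 3.58-fold above the db/m mean in db/db 1 and 1.97-fold in db/db 2. Tapbp, or tapasin, which holds class I molecules at the transporter, had a change of 0.43 ± 0.23 (adjusted p = 0.3). Of the 5 genes of class I peptide supply all 5 had a positive change. Their median was 0.74, and 0.47 when db/db 1 was left out, and 0 were called.

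The promoter of B2m and the stretch shared by Tap1 and Psmb9 are shown because B2m had the smallest and Tap1 the largest change of the 5 peptide supply genes. Both are RefSeq sequences of the GRCm38.p6 build of C57BL/6J, 250 bases before the annotated start and 50 from it on, printed along the strand of the gene. Capitals mark, on either strand, an interferon response element core (GAAA, any 2 letters, then GAAA) or the core of a Y box. The Y box core is ATTGG, the reverse complement of CCAAT. The B2m window is chr2:122147437-122147736, plus strand, and the Tap1 window is chr17:34187306-34187605, plus strand.
B2m: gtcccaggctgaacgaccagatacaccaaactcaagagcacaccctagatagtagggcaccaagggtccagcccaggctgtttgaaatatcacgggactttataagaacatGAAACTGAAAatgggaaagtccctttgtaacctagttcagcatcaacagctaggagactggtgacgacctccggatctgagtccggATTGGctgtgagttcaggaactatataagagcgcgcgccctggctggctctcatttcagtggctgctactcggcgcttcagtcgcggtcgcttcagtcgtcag
Tap1: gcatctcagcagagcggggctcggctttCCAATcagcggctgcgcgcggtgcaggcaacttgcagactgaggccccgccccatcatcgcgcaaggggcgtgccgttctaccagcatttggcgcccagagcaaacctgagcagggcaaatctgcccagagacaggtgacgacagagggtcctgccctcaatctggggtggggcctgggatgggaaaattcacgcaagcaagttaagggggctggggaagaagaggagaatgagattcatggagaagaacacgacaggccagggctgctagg

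Tap1 and the immunoproteasome gene Psmb9 lie head to head on chromosome 17, with their annotated starts 226 bases apart, so the Tap1 window also holds the start of Psmb9. The interferon response element core was found in the windows of 3 of the 24 members with a promoter sequence in RefSeq (B2m, Erap1 and Psme1), against 3.99% of the 27025 genes with a window. In B2m it began at position -139, where 0 is the first transcribed base. The Y box core, at 5 letters, was found for 17 of the 24 members and 41.1% of all genes. A GAS element (TTCNNNGAA) was found in the windows of Psmb8, H2-DMb2 and H2-M3, against 9.55% of all genes. A match of letters is a description of the sequence only.

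The catalytic subunits of the immunoproteasome also spread widely among db/db mice, with an SD of 1.83 for Psmb8, 1.65 for Psmb9 and 1.17 for Psmb10. These subunits replace those of the constitutive proteasome and favour cuts that yield class I peptides. Psmb8 stood at 13.88, 12.16, 10.90, 10.04 and 9.21 in db/db, against 10.24, 9.68, 9.99, 9.90 and 10.14 in db/m. It was 14.8-fold above the db/m mean in db/db 1 and 4.48-fold in db/db 2, and 1.71-fold below it in db/db 5, with a change of 1.25 ± 0.73 (adjusted p = 0.364). The change was 0.59 ± 0.48 without db/db 1, and without db/db 1 and 2 it was 0.06 ± 0.32.

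Psmb9 stood at 13.54, 11.95, 11.15, 10.40 and 9.15 in db/db, against 10.10, 9.57, 9.84, 9.95 and 10.30 in db/m, with a change of 1.29 ± 0.66 (adjusted p = 0.296). Psmb10 stood at 13.73, 12.26, 11.57, 11.09 and 10.78 in db/db, against 11.05, 10.49, 10.81, 10.72 and 11.04 in db/m, with a change of 1.07 ± 0.48 (adjusted p = 0.23). In both genes db/db 1 to 4 were above every db/m mouse, whereas db/db 5 was below all of them for Psmb9 and within their range for Psmb10. The genes of the proteasome cap PA28, Psme1 and Psme2, each had a change of 0.49 (adjusted p = 0.258 and 0.239), and db/db 1 was 2.55-fold and 2.58-fold above the db/m mean. Over the 5 genes the median was 1.07, or 0.59 without db/db 1 and 0.23 without db/db 1 and 2.

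The constitutive proteasome did not spread with the immunoproteasome. Of 14 genes of the 20S core listed 9 were measured, 0 were called, and at an unadjusted p under 0.05 there were also 0 by limma. Their changes ran from -0.08 to 0.11 with a median of 0.02. The median gene of this list was at 0.06, -0.03, -0.02, 0.04 and -0.03 relative to the db/m mean in db/db 1 to 5. Psmb6, which Psmb9 replaces, had a change of 0.02 ± 0.09, and Psmb7, which Psmb10 replaces, had a change of -0.08 ± 0.06. Psmb5, the counterpart of Psmb8, was not analysed here. Among 8 genes of proteasome assembly and other activators Psmg4, an assembly chaperone gene, rose by 0.51 ± 0.10 (adjusted p = 0.0184) and 0 fell, beside 2.96% of all genes that rose. The call was lost without db/m 3 (adjusted p = 0.0514).

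**Figure D3:**
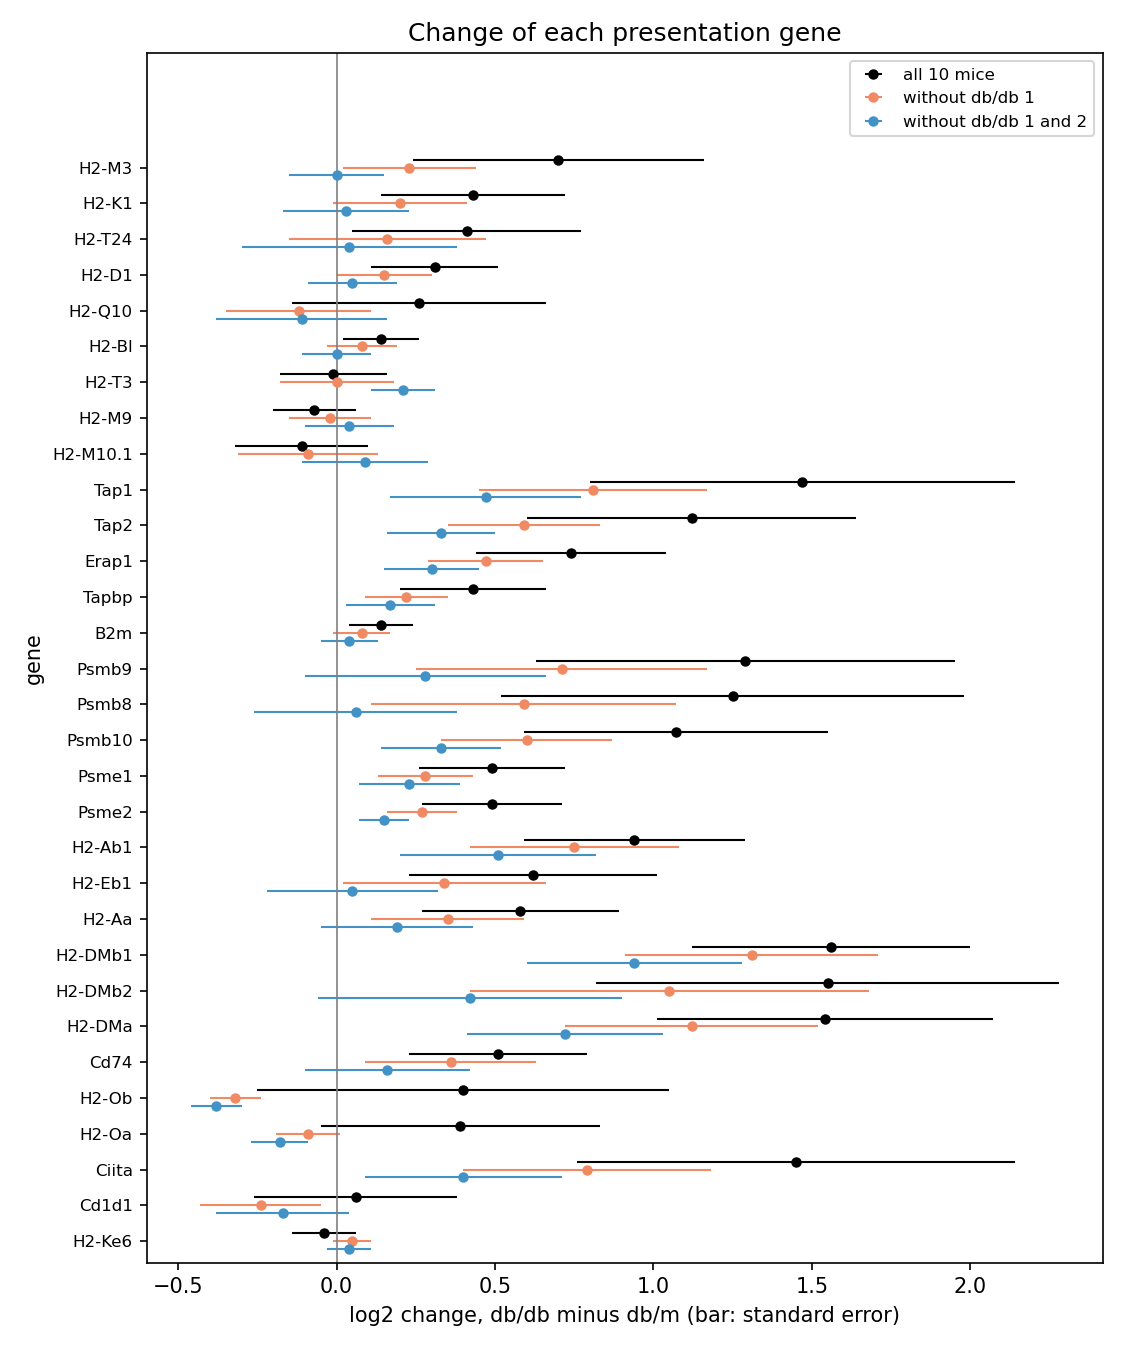
Log2 change, db/db minus db/m, of each of the 31 genes with its standard error, with all 10 mice (black), without db/db 1 (orange) and without db/db 1 and 2 (blue). For most genes the change is nearer 0 with fewer mice: the median is 0.49 with all mice, 0.27 without db/db 1 and 0.15 without db/db 1 and 2.

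The class II chains, which show peptides taken up from outside the cell, were bright in both groups. H2-Ab1 stood at 13.76, 13.47, 13.34, 12.52 and 11.76 in db/db, against 12.26, 11.56, 11.97, 12.25 and 12.10 in db/m. Db/db 1 to 4 were above every db/m mouse and db/db 5 was within their range, and the change was 0.94 ± 0.35 (adjusted p = 0.146). It was 0.75 ± 0.33 without db/db 1, and without db/db 1 and 2 it was 0.51 ± 0.31. H2-Eb1 stood at 13.96, 13.43, 13.07, 12.16 and 11.55 in db/db, against 12.30, 12.11, 12.20, 12.27 and 12.17 in db/m, a change of 0.62 ± 0.39 (adjusted p = 0.395). H2-Aa stood at 13.25, 12.54, 12.67, 11.72 and 11.36 in db/db, against 11.87, 11.66, 11.65, 11.73 and 11.72 in db/m, a change of 0.58 ± 0.31 (adjusted p = 0.307). In all 3 chains db/db 1, 2 and 3 were above every db/m mouse.

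The invariant chain gene Cd74 was among the brightest of these genes. It stood at 14.49, 14.35, 14.29, 13.50 and 12.87 in db/db, against 13.42, 13.19, 13.44, 13.52 and 13.37 in db/m, and the change was 0.51 ± 0.28 (adjusted p = 0.336). Its level in db/db 1 lay at the top of the array's scale, which ended at 14.5. It was below every db/m mouse in db/db 5, by 1.44-fold against the mean.

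The H2-DM genes had the largest changes of the 31. H2-DM is the class II-like molecule that frees the groove of class II and edits its peptides. H2-DMb1 stood at 13.48, 13.31, 12.81, 11.83 and 10.95 in db/db, against 11.20, 10.61, 10.89, 10.92 and 10.97 in db/m. It was 5.92-fold above the db/m mean in db/db 1, 5.24-fold in db/db 2, 3.71-fold in db/db 3 and 1.88-fold in db/db 4, and was at the db/m level in db/db 5. The change of 1.56 ± 0.44 had the lowest adjusted p of the 31 genes (0.0624), and was 1.31 ± 0.40 when db/db 1 was left out (adjusted p = 0.0644). With db/db 2 left out as well it was 0.94 ± 0.34 (adjusted p = 0.12).

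H2-DMa stood at 12.75, 11.86, 11.11, 10.12 and 9.51 in db/db, against 9.84, 9.25, 9.32, 9.56 and 9.66 in db/m, with a change of 1.54 ± 0.53 (adjusted p = 0.12). H2-DMb2 stood at 12.16, 11.53, 10.36, 8.93 and 7.74 in db/db, against 8.69, 8.12, 8.70, 8.75 and 8.70 in db/m, with a change of 1.55 ± 0.73 (adjusted p = 0.254). The DMb genes are near copies of each other and the probes may read both. When db/db 5 was left out, H2-DMb1 (1.94 ± 0.30, adjusted p = 0.01), H2-DMa (1.93 ± 0.45, adjusted p = 0.0423) and H2-Ab1 (1.25 ± 0.25, adjusted p = 0.0241) passed. In that fit 834 of the 16475 genes passed. Db/db 5 was the lowest db/db mouse in each of these named genes, so leaving it out follows the values tested.

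The genes of H2-O, which restrains H2-DM and is known mainly from B cells and thymus, were above the db/m range in db/db 1 alone. H2-Ob stood at 8.91 in db/db 1, and at 5.45, 5.15, 5.29 and 5.23 in db/db 2 to 5, against 5.51, 5.79, 5.57, 5.61 and 5.52 in db/m. It was 9.93-fold above the db/m mean in db/db 1 and below every db/m mouse in each of the other db/db mice. With all mice the change was 0.40 ± 0.65 (adjusted p = 0.767). Leaving out db/db 1 gave -0.32 ± 0.08 (adjusted p = 0.0326), in a fit where 12.8% of all genes passed, 6.84% higher and 5.93% lower in db/db. Leaving out db/db 2 as well gave -0.38 ± 0.08 (adjusted p = 0.0197), where 11.1% passed, 6.0% higher and 5.13% lower. It was the 1 member called in those fits, at a dim level. Db/db 1 and 2 were the highest db/db mice for H2-Ob, so leaving them out follows the values tested. H2-Oa stood at 7.93, 5.74, 5.49, 5.48 and 5.27 in db/db 1 to 5, against 5.45 to 5.78 in db/m. It thus fell in the mouse order of most members, which H2-Ob did not. The change of H2-Oa was 0.39 ± 0.44 with all mice and -0.09 ± 0.10 without db/db 1 (adjusted p = 0.625).

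Over the 9 class II genes, chains and loading together, all 9 changes were positive with all mice. Their median was 0.62, and it was 0.36 without db/db 1 and 0.19 without db/db 1 and 2. Of them 0 were called with all mice and 3 had an unadjusted p under 0.05, against 21.5% of all genes at that unadjusted threshold. Relative to the db/m mean the median gene stood higher by 2.34 in db/db 1, by 1.22 in db/db 2, by 0.95 in db/db 3 and by 0.11 in db/db 4, and was at -0.36 in db/db 5. For the 9 class I heavy chain genes, which include the 5 dim ones, the corresponding medians were 0.94, 0.30, 0.26, 0.15 and -0.26. The difference between the classes was not tested.

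Ciita, the transactivator on which class II transcription depends, spread like Tap1. It stood at 10.57, 8.45, 7.76, 6.73 and 6.20 in db/db, against 6.75, 6.10, 6.65, 6.43 and 6.55 in db/m. Db/db 1, 2 and 3 were 16.8-fold, 3.86-fold and 2.40-fold above the db/m mean, and db/db 4 and 5 lay within the db/m range. The change was 1.45 ± 0.69 (adjusted p = 0.257), or 0.79 ± 0.39 without db/db 1 and 0.40 ± 0.31 without db/db 1 and 2.

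The promoters of H2-Eb1 and H2-DMb1 are shown because Ciita acts through the factors bound to the X and Y boxes of such promoters, and because these are a class II chain and the member with the largest change. In the windows, from RefSeq on GRCm38.p6, capitals mark the core of an X box (CTAGCAAC) and the core of a Y box (ATTGG), on either strand. The H2-Eb1 window is chr17:34305617-34305916 and the H2-DMb1 window is chr17:34152941-34153240, both on the plus strand.
H2-Eb1: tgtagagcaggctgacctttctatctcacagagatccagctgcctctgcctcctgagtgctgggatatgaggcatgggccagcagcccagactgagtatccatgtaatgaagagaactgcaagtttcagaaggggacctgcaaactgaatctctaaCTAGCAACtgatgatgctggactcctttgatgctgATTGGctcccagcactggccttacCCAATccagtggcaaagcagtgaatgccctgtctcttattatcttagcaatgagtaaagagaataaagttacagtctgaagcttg
H2-DMb1: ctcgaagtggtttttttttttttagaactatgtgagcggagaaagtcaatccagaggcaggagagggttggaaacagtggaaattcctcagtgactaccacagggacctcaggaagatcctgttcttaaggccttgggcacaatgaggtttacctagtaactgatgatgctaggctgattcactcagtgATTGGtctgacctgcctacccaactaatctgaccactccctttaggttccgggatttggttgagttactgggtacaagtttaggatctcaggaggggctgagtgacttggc

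In H2-Eb1 the X box core began at position -94 from the annotated start, and the Y box cores at -59 and -35. The X box core was present in the windows of 2 of the 24 members, H2-Eb1 and H2-Ob, and in those of 1.55% of all genes. The exact letters were not in the windows of the other members searched. H2-Ab1, Cd74, Ciita, Tap2, H2-T24, H2-Bl and Cd1d1 had no window and were not searched for any of these elements.

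A pair of members lay outside both classes. Cd1d1, which presents lipids to NKT cells, stood at 8.32 in db/db 1 and at 6.37 to 7.23 in the other db/db mice, against 6.75 to 7.33 in db/m, with a change of 0.06 ± 0.32 (adjusted p = 0.935). H2-Ke6, whose name comes from its place in the complex, encodes a steroid and fatty acid dehydrogenase and not a presenting molecule. It stood at 12.46 in db/db 1 and at 12.84 to 12.96 in the other db/db mice, against 12.73 to 12.98 in db/m, and its change was -0.04 ± 0.10 (adjusted p = 0.849).

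Of 5 measured class I-like genes outside the rule, 3 passed the test, beside 6.51% of all genes. Hfe, which takes part in iron sensing, stood at 11.08, 11.27, 11.21, 11.01 and 10.84 in db/db, against 10.51, 10.48, 10.29, 10.12 and 10.35 in db/m, and rose by 0.73 ± 0.10 (adjusted p = 0.00419). Mr1, which presents vitamin B metabolites to MAIT cells, stood at 7.57, 7.0, 7.33, 7.08 and 7.26 in db/db, against 6.37, 6.39, 6.77, 6.48 and 6.28 in db/m, and rose by 0.79 ± 0.13 (adjusted p = 0.00745). Azgp1, a secreted class I-like glycoprotein, stood at 11.93, 12.23, 12.75, 12.58 and 12.76 in db/db, against 13.35, 13.45, 13.36, 13.33 and 13.43 in db/m, and fell by 0.94 ± 0.15 (adjusted p = 0.00787). All 3 kept the groups apart, beside 4.35% of all genes with db/db higher and 5.85% with db/db lower. They were called in each of the 10 fits that left out 1 mouse. In this list 2 genes rose and 1 fell, and the neonatal Fc receptor gene Fcgrt was at -0.01 ± 0.07. Procr, the endothelial protein C receptor gene, stood at 10.50, 7.52, 6.55, 7.02 and 8.25 in db/db, against 7.01 to 7.63 in db/m. It was 9.39-fold above the db/m mean in db/db 1, and its change of 0.70 ± 0.62 did not pass (adjusted p = 0.563).

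The factors and signals upstream were mostly uncalled. Of 6 class II promoter factors 2 fell and 0 rose, beside 3.54% of all genes that fell and 2.96% that rose. Nfya, a subunit of the CCAAT-binding factor NF-Y, fell by 0.95 ± 0.23 (adjusted p = 0.0394), and Creb1 by 0.48 ± 0.12 (adjusted p = 0.0416). Each kept its call in 2 of the 10 fits that left out 1 mouse (Nfya without db/db 1 or db/db 3, Creb1 without db/db 1 or db/m 2), with adjusted p up to 0.0844 for Nfya and 0.105 for Creb1. Rfx5, which binds the X box, had a change of 0.37 ± 0.14 (adjusted p = 0.172). Of 11 genes of interferon gamma signalling 0 were called, and 0 had an unadjusted p under 0.05. Irf1, an interferon-induced activator of class I and Tap1 transcription, stood at 13.39, 11.34, 11.20 and 10.64 in db/db 1 to 4, against 10.15 to 10.79 in db/m, and below every db/m mouse in db/db 5, with a change of 0.85 ± 0.52 (adjusted p = 0.384). Ifng itself stood at 9.09 in db/db 1 and at 4.81 to 5.20 in the other db/db mice, against 4.81 to 5.88 in db/m. Its level was above the db/m range in db/db 1 alone, and its part in the levels of the presentation genes was not tested.

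By their median, genes induced by interferons followed the same mice. Of 14 measured 0 were called and 0 had an unadjusted p under 0.05, with Irgm1, an immunity-related GTPase gene, nearest the threshold (0.54 ± 0.27, adjusted p = 0.285). Relative to the db/m mean their median stood higher by 3.21 in db/db 1, 1.37 in db/db 2, 0.52 in db/db 3 and 0.17 in db/db 4, and at -0.72 in db/db 5. Above every db/m mouse were 12 of the 14 in db/db 2 (23.6% of all genes) and 9 in db/db 3 (24.0%). Cxcl9 went the other way in db/db 3, at 2.87-fold below the db/m mean. Without db/db 1 and 2 it was called lower (-1.07 ± 0.16, adjusted p = 0.0054), where 5.13% of all genes were. Db/db 1 and 2 were the highest db/db mice for Cxcl9, so leaving them out follows the values tested. In db/db 5, 12 of the 14 were below every db/m mouse, beside 24.2% of all genes. In the class I peptide loading list 0 of 7 genes were called. Pdia3, the loading complex's disulfide isomerase gene, had the lowest adjusted p (-0.36 ± 0.12, adjusted p = 0.101). By limma 3 genes of that list had an unadjusted p under 0.05, against 21.5% of all genes. In class II peptide processing Lgmn, an endosomal protease gene, rose by 0.41 ± 0.09 (adjusted p = 0.0294), the 1 call of 8 genes, beside 6.51% of all genes. The call was kept in 3 of the 10 fits that left out 1 mouse (db/db 1, db/db 5 or db/m 2), with adjusted p up to 0.0844. The endosomal protease gene Ctss stood at 13.67, 12.51, 11.42, 11.15 and 10.86 in db/db, against 11.31 to 11.73 in db/m, with a change of 0.39 ± 0.47 (adjusted p = 0.676). Of 7 costimulation and checkpoint ligand genes 0 were called and 0 had an unadjusted p under 0.05, with Cd40 the nearest (1.08 ± 0.69, adjusted p = 0.407).

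**Figure D4:**
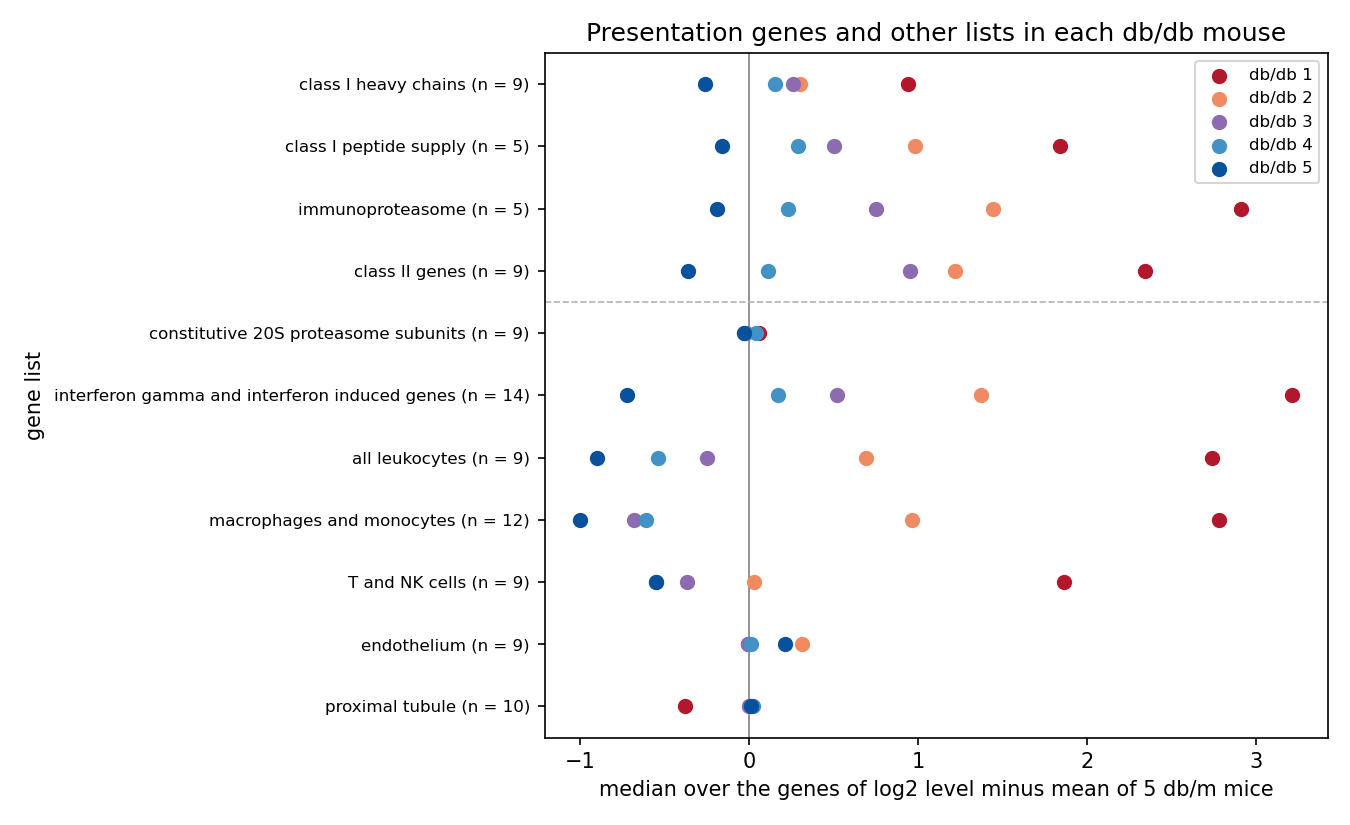
For each list of genes (rows), the median over its genes of the log2 level minus the mean of the 5 db/m mice, in each db/db mouse (coloured points). In the upper 4 rows and the interferon-induced row db/db 1, 2 and 3 lie to the right of 0, while in the leukocyte and macrophage rows db/db 3, 4 and 5 lie to the left, at -0.25 to -1.0.

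By the median of each list, pan-leukocyte and macrophage markers were high in db/db 1 and 2 and low in db/db 3, 4 and 5, whereas neutrophil markers were high in db/db 1, 2 and 3. In bulk tissue, fewer cells of a type and less RNA per cell cannot be told apart. Over 9 pan-leukocyte genes, such as Ptprc and Cd53, the mean level was 8.11 to 11.68 in db/db mice and 8.95 to 9.03 in db/m mice, and by limma with all mice 0 were called and 0 had an unadjusted p under 0.05. All 9 were above every db/m mouse in db/db 1 (25.1% of all genes) and in db/db 2 (23.6%). In db/db 3, 5 were below every db/m mouse (26.1% of all genes), and 8 were below in db/db 4 (21.9%) and in db/db 5 (24.2%). Of 12 macrophage and monocyte genes 0 were called and 0 had an unadjusted p under 0.05, and the mean level was 7.27 to 11.28 in db/db and 8.13 to 8.33 in db/m. Relative to the db/m mean their median stood higher by 2.78 in db/db 1 and 0.96 in db/db 2, and was at -0.68, -0.61 and -1.0 in db/db 3, 4 and 5. Single genes of the list went the other way. In db/db 3 Cd14 (9.30) was 2.58-fold above the db/m mean, and Itgam (5.02) was also above every db/m mouse. In db/db 2 Csf1r (10.02) was below every db/m mouse. In db/db 3, in which 7 of the 9 class II genes and all 5 immunoproteasome genes were above every db/m mouse, 9 of the 12 macrophage genes were below every db/m mouse, beside 26.1% of all genes, and all 5 neutrophil genes were above every db/m mouse, beside 24.0%. Without db/db 1 and 2, limma called 5 of the 9 pan-leukocyte and 9 of the 12 macrophage genes lower, against 5.13% of all genes. By the medians of these lists db/db 1 and 2 were the highest db/db mice, so leaving them out follows the values tested. The part of these cells in the levels of the presentation genes was not tested.

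Of 9 dendritic cell genes Cd209a, a lectin gene, fell by 1.27 ± 0.10 (adjusted p = 0.000232), at a dim 3.67 in db/db and 4.93 in db/m. It was the 1 call of this list, beside 3.54% of all genes that fell, and 0 rose. The mean of the list was 5.41 to 6.13 in db/db and 5.82 to 6.03 in db/m. B cell genes (5 measured, 0 called) averaged 4.83 to 5.95 in db/db and 5.02 to 5.34 in db/m, and Ms4a1, which encodes CD20, was at 4.45 in db/db and 4.77 in db/m. T and NK cell genes (9 measured, 0 called) averaged 5.35 to 7.67 in db/db and 5.97 to 6.10 in db/m, with the highest value in db/db 1. Without db/db 1 and 2, limma called 3 of the 9 dendritic cell and 5 of the 9 T and NK cell genes lower, beside 5.13% of all genes. The medians of these lists were also highest in db/db 1 and 2, so that fit follows the values tested. Neutrophil genes (5 measured, 0 called) averaged 11.52, 8.08 and 8.06 in db/db 1, 2 and 3 and 6.10 and 5.91 in db/db 4 and 5, against 5.81 to 6.57 in db/m. Endothelial genes (9 measured, 0 called) averaged 9.40 to 9.71 in db/db and 9.45 to 9.56 in db/m. Of 7 podocyte genes 5 rose and 0 fell, beside 2.96% of all genes that rose, among them Nes by 0.71 ± 0.11 (adjusted p = 0.0056). Nes, Synpo and Ptpro were called in 10 of the 10 fits that left out 1 mouse, Wt1 in 8 and Cdkn1c (0.80 ± 0.19, adjusted p = 0.0357) in 2, those without db/db 1 or db/m 2. Leaving out db/db 1 gave 7 of 7 podocyte genes called higher, beside 6.84% of all genes. Among db/db mice the median of this list was lowest in db/db 1, so that fit follows the values tested. At an unadjusted p under 0.05 by limma, where 21.5% of all genes were, there were 0 B cell, 0 T and NK cell, 0 neutrophil and 2 endothelial genes. Tubule lists had 0 calls each with all mice, with 1, 0 and 2 genes at an unadjusted p under 0.05 among 10 proximal tubule, 7 thick limb and distal and 7 collecting duct genes. Without db/db 1, limma called 0, 3 and 4 of them higher, beside 6.84% of all genes. Without db/db 1 and 2 it called 0, 3 and 5 higher, beside 6.0%. In db/db 1 the medians of these lists were at -0.38, -0.81 and -0.61 relative to the db/m mean. These were the lowest of the db/db mice, so leaving out db/db 1 follows the values tested. The collecting duct median was at 0.47, 0.71, 0.56 and 0.69 in db/db 2 to 5. The part of any of these cells in the levels of the presentation genes was not tested.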

How the data were processed

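Each deposited column holds log2 values, 1 per Entrez gene; the submitters' processing notes name RMA. Its version, and how probes were regrouped, is not stated there. The array type is from the series design text. The table held 16539 rows, of which 64 control rows were left out. Gene symbols came from the platform annotation, which listed 1 symbol for 15780 of the 16475 genes and none for 695; all 31 members matched the RefSeq gene table by Entrez ID. Array medians were 8.46 to 8.66, no further scaling was applied, and 0 columns were left unmapped. No 2 arrays were copies, since any pair differed by at least 3.07 log2 units in some gene.

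The comparison of db/db with db/m used lmFit and eBayes of limma 3.58.1 under R 4.3.3, two-sided, checked on simulated data. The simulation gave each gene the same SD in both groups, so it does not cover the wider db/db spread of the presentation genes. Precision is limited by having 5 arrays a group, and since separate animals were the samples, p-values measure the spread between mice. Class and list medians and per-mouse counts are descriptions with no test. The members, the 20 other lists, the alternatives and the naming rule were chosen with earlier results of these data known. The rule gave values per mouse for members called with all mice or without db/db 1, and for 13 set genes. H2-DMa, H2-DMb1, H2-DMb2, H2-M3, H2-T24, H2-Oa, Tap2, Tapbp, Erap1, Cd1d1, H2-Ke6, Psme1, Psme2, Rfx5, Irf1, Ifng, Ctss, Fcgrt, Procr, Wt1, Cdkn1c and the constitutive subunits were added after their values were seen. Details of Cxcl9, H2-Q10, H2-Bl and H2-T3 were also given outside the rule. Promoter windows were those of RefSeq, with both strands searched. Same-numbered mice were not paired by the labels. Python 3.11.15 with matplotlib 3.10.9 made the figures.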

Additional observations from a re-analysis of the deposited data

Results flagged for a closer look

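In 62 groups of 5 mice, each member in db/db and in db/m, 5 held a mouse far from the other 4 by the gap between it and its nearest neighbour relative to the range (above 0.71). Chance gives about 1 such group in 20. H2-Ob in db/db 1 stood at 8.91, with the others at 5.15 to 5.45, and H2-Oa in db/db 1 at 7.93, with the others at 5.27 to 5.74. H2-Ke6 in db/db 1 stood at 12.46, below the others at 12.84 to 12.96. In db/m 2, H2-DMb2 stood at 8.12, below the others at 8.69 to 8.75, and H2-M3 at 9.17, above the others at 8.86 to 8.93.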

How the results depend on the processing

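With 5 arrays a group the spread between mice limits what can be called, and dim genes, such as H2-Ob, lie near the low end of the scale. Of all genes 1072 were called, against 279 at an adjusted p under 0.01, 575 with a 1.5-fold change as well, 2641 with array weights and 1834 without db/db 1 and 2. Leaving out 1 mouse gave 490 to 2104, with moves of over 1.5 times without db/db 1 (2104), db/db 2 (644), db/db 3 (674), db/m 1 (684), db/m 3 (490), db/m 4 (576) and db/m 5 (683). Same-numbered mice were not paired (r of their deviations -0.0948 to 0.00599), and with the mouse number as a replicate block 393 genes and 0 members were called. The 0 members called higher became 1 with array weights (H2-DMb1, 1.24, adjusted p = 0.0343) and 3 without db/db 5, where 834 of all genes were called. The range was 0 to 3 on leaving out 1 mouse. The 0 called lower became 1 without db/db 1 and 1 without db/db 1 and 2 (H2-Ob), a range of 0 to 1. The class I median of 0.26 was 0.12 with array weights, 0.04 without db/db 1 and 2, 0.11 with a replicate block and mice numbered 1 left out (chosen after seeing the data), and 0.08 to 0.46 on leaving out 1 mouse. The class II median of 0.62 was 0.32 with array weights, 0.19 without db/db 1 and 2, 0.38 with that replicate block, and 0.36 to 0.95 on leaving out 1 mouse.

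The sign of the change, none of them called with all mice, turned for the following genes, and the cause was not tested. With array weights it did for Cd1d1 (-0.15), H2-Ke6 (0.03), H2-M9 (0.09), H2-Oa (-0.02), H2-Ob (-0.24) and H2-T3 (0.02), and for Cd1d1 with centred arrays (-0.01), repeated quantile normalization (-0.02) and without db/m 5 (-0.02). Without db/db 1 it did for Cd1d1 (-0.24), H2-Ke6 (0.05), H2-Oa (-0.09), H2-Ob (-0.32) and H2-Q10 (-0.12), and with the replicate block and mice numbered 1 left out for the same genes (-0.30, 0.08, -0.13, -0.34 and -0.12). Without db/db 1 and 2 it did for Cd1d1 (-0.17), Cd53 (-0.26), H2-Ke6 (0.04), H2-M10.1 (0.09), H2-M9 (0.04), H2-Oa (-0.18), H2-Ob (-0.38), H2-Q10 (-0.11) and H2-T3 (0.21). H2-M10.1 and H2-T3 also turned without db/db 2 (0.02 and 0.14) and without db/m 3 (0.02 and 0.04). On leaving out 1 mouse the changes ran from -0.24 to 0.25 for Cd1d1, -0.08 to 0.05 for H2-Ke6, -0.25 to 0.02 for H2-M10.1, -0.09 to 0.57 for H2-Oa, -0.32 to 0.62 for H2-Ob, -0.12 to 0.49 for H2-Q10 and -0.09 to 0.14 for H2-T3.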
